A study of Mus musculus with 8 samples.

Results

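Aminoacyl-tRNA synthetases join each amino acid to its tRNA, the step that fixes which amino acid a codon stands for. Mouse cells keep separate sets for the cytosol and for mitochondria, both encoded in the nucleus, and the mitochondrial enzymes are mostly named with a final 2. Some genes serve both places: Kars and Gars each give a cytosolic and a mitochondrial form. In the cytosol several synthetases are held together with scaffold proteins in the multisynthetase complex, and the enzymes fall into the structural classes I and II.

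The set described here holds 36 genes of the 27179 in the deposited table, chosen by symbol: 20 cytosolic synthetases and 16 mitochondrial ones. All 36 passed the filter on low values and were tested. The cytosolic genes are Aars, Cars, Dars, Eprs, Farsa, Farsb, Gars, Hars, Iars, Kars, Lars, Mars, Nars, Qars, Rars, Sars, Tars, Vars, Wars and Yars, where the first letter is the code of the amino acid. Eprs charges both glutamate and proline, and Farsa and Farsb encode the subunits of 1 enzyme. The mitochondrial genes are Aars2, Cars2, Ears2, Fars2, Hars2, Iars2, Lars2, Mars2, Nars2, Pars2, Rars2, Sars2, Tars2, Vars2, Wars2 and Yars2.

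The study sequenced polyadenylated RNA of CD4+ T cells sorted from spleens of 8-week-old mice of the strain C.Cg-Foxp3tm2Tch/J, which carries a fluorescent reporter at Foxp3 and is shared by all groups. Cd offspring came from parents that drank water with 10 ppm cadmium chloride before and during pregnancy, and control offspring from parents on plain water. Cells were either left unstimulated (0 h) or cultured for 16 h with beads coated with anti-CD3 and anti-CD28, which engage the T cell receptor and its costimulator. No group was cultured for 16 h without beads, so beads and time in culture cannot be told apart. Stimulation below stands for both together. Each of the 4 groups has 2 libraries, numbered 6 and 7, and the values of a group are given below in that order. Nothing in the labels ties these libraries to separate litters, so p values measure the spread between these libraries.

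Levels are in RPKM (reads of a gene divided by its transcript length and by the reads counted in the library), which can be compared between genes. RPKM is a share of a library's reads, so a change of the total RNA per cell is not seen, and in sorted populations fewer cells of a type and less RNA per cell cannot be told apart. The libraries held 15542732 to 25486791 reads on genes, and the members had between 157 reads (Ears2) and 131624 reads (Lars2) in a library. The labelled cell type was checked on its markers. All 6 CD4+ T cell genes were high, with Cd4 at 212 to 315 RPKM, and their sum was 1960 to 2010 RPKM in unstimulated and 1270 to 1280 RPKM in stimulated control libraries (1860 to 1910 and 1290 to 1310 in Cd offspring). The B cell gene Ms4a1, the monocyte gene Cd14 and the globin Hba-a1 were at 0 in every library, and Cd8a was at most 0.16 RPKM. Other genes of the same lists were detected. Cd8b1 was at 9.4 to 11.7 RPKM and the B cell gene Cd79a at 2.87 to 4.73 RPKM. The myeloid gene Itgam reached 1.85 RPKM and the erythroid gene Alas2 1.72 RPKM. Some lists of other cells moved with stimulation. The sum of the 3 NK genes was 20.3 to 23.7 RPKM in unstimulated and 1.54 to 1.95 RPKM in stimulated libraries, mostly Prf1 with Ncr1 at or near 0, and that of the 4 myeloid genes was 1.87 to 2.03 against 0.38 to 0.582 RPKM. The sums for 3 B cell genes were 3.12 to 3.76 against 4.19 to 4.89 RPKM, for both CD8 genes 9.52 to 10.7 against 10.3 to 11.8 RPKM, for Foxp3 and Ikzf2 6.32 to 7.95 against 8.52 to 11.0 RPKM, and for the 3 measured erythroid genes 0.365 to 1.72 against 1.04 to 1.38 RPKM. The part of these shifts in the synthetase results was not tested. Activation itself was seen in the list of Il2ra, Cd69, Irf4 and Myc, whose sum went from 143 to 196 RPKM up to 1080 to 1170 RPKM.

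Before stimulation the cytosolic synthetases stood well above the mitochondrial ones. The median cytosolic gene was at 28.0 RPKM in control and 28.8 RPKM in Cd offspring, from Cars (11.8 and 12.7 RPKM), the cysteine enzyme, to Nars (51.4 and 53.0 RPKM), the asparagine enzyme. Without Lars2, the median mitochondrial gene was at 7.82 and 9.04 RPKM, from Pars2, which charges proline, at 3.31 and 3.21 RPKM, to Iars2, which charges isoleucine, at 26.3 and 25.3 RPKM. Of the 15 mitochondrial genes other than Lars2, 5 were above the lowest cytosolic gene in unstimulated cells of either exposure, and in stimulated cells 1 was (Iars2). After stimulation the cytosolic median was 59.8 RPKM in control and 57.8 RPKM in Cd offspring, with Kars highest at 140.0 and 132.4 RPKM, while the mitochondrial median without Lars2 was 8.88 and 8.44 RPKM.

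**Figure D1:**
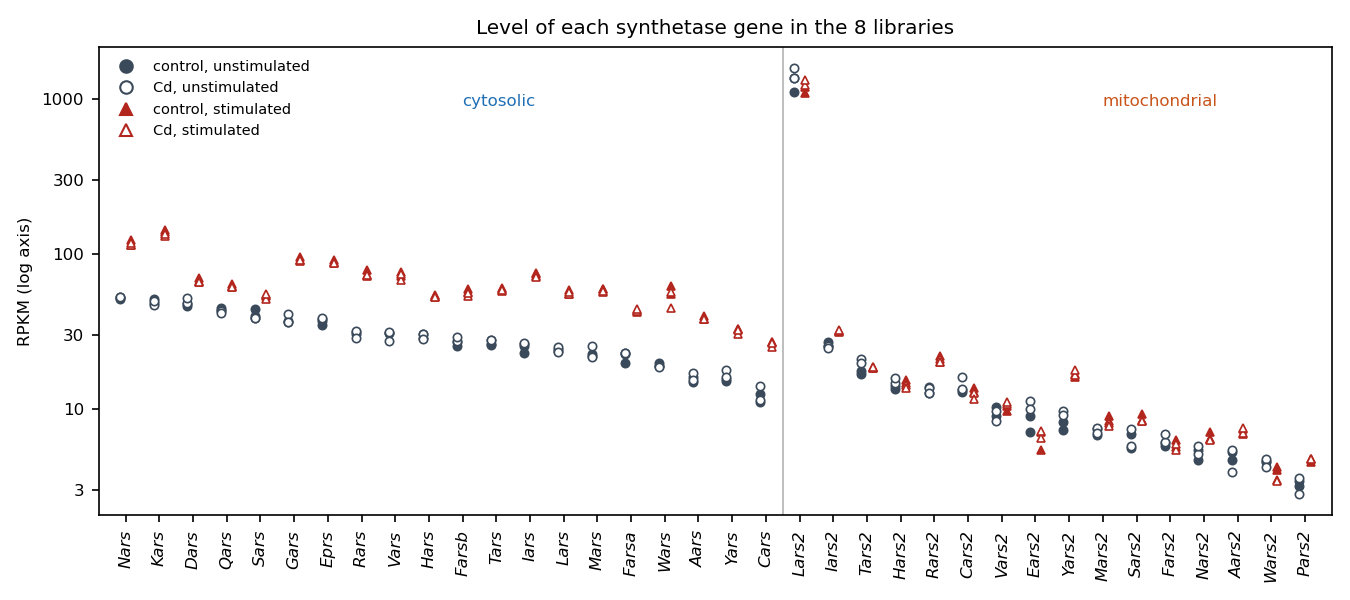
RPKM on a log axis of the 36 synthetase genes in each of the 8 libraries, ordered within each compartment by the mean in unstimulated control cells. Circles are unstimulated and triangles stimulated libraries, filled for control and open for Cd offspring. The triangles stand above the circles for all 20 cytosolic genes, and Lars2 stands apart from the other mitochondrial genes at 1096 to 1582 RPKM.

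Lars2, the mitochondrial leucine enzyme (GRCm38.p6 chr9:123366927-123462675), was an exception in its level. It was at 1117 and 1366 RPKM in unstimulated control, 1096 and 1204 in stimulated control, 1366 and 1582 in unstimulated Cd and 1226 and 1331 in stimulated Cd libraries. No other mitochondrial synthetase had a group mean over 32.1 RPKM. Lars2 took more reads than the 20 cytosolic genes together in every library: the mitochondrial set held 0.477% to 0.659% of all reads with Lars2 and 0.0434% to 0.0525% without it, against 0.18% to 0.406% for the cytosolic set. The ribosomal RNA features Rn18s and Rn45s were also abundant, Rn18s at 3032 to 5090 RPKM and Rn45s at 6384 to 9409 RPKM, although the kit selects polyadenylated RNA. The files do not give positions of reads within Lars2, and whether its reads came from leucyl-tRNA synthetase mRNA was not tested. Sums of the mitochondrial set are therefore given without it.

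Stimulation in control offspring raised most of the cytosolic set. Of 20 genes, 16 rose by more than 2-fold at an adjusted p under 0.01 (limma, Benjamini-Hochberg), where 11.5% of the 12605 genes tested rose. The other four (Dars, Hars, Qars and Sars) were higher at an adjusted p under 0.01 without reaching 2-fold, so that all 20 met the criterion at any fold, against 29.9% of all genes. None fell, where 7.17% of all genes did, and none was lower at any fold, where 21.8% were. The libraries of all 20 were higher without overlap, beside 46.0% of all genes. The median log2 fold change was 1.23 (2.34-fold) over the cytosolic set, with a range from 0.37 to 1.63, beside 0.07 over all genes tested. Folds are on the log2(RPKM + 0.1) scale.

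The gene with the largest change was Iars, the isoleucine enzyme of the multisynthetase complex (chr13:49682130-49734267). It was at 22.8 and 25.5 RPKM in unstimulated and 74.2 and 75.2 RPKM in stimulated control libraries, and at 26.2 and 26.5 against 72.0 and 70.7 RPKM in Cd offspring. The groups did not overlap, and the log2 fold change was 1.63 ± 0.06 (SE) in control offspring (limma, Benjamini-Hochberg adjusted p = 7.05e-07). Wars, the tryptophan enzyme, which is also known as an interferon-responsive gene, was at 19.9 and 19.1 RPKM before and 55.1 and 62.2 RPKM after stimulation in control offspring. In Cd offspring Wars was at 19.0 and 18.6 against 45.1 and 56.9 RPKM. Its stimulated libraries were the most spread of the leading genes, and its log2 fold change was 1.58 ± 0.11 (SE) in control offspring (limma, adjusted p = 1.09e-05).

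Kars, the lysine enzyme (chr8:111993439-112011354), was the most abundant member after stimulation other than Lars2. It was at 51.0 and 48.2 RPKM in unstimulated and 142 and 138 RPKM in stimulated control libraries, and at 47.0 and 49.9 against 130.5 and 134 RPKM in Cd offspring. The log2 fold change was 1.50 ± 0.05 (SE) in control offspring (limma, adjusted p = 6.41e-07), with no overlap between groups. Mars, which charges both initiator and elongator methionine tRNA, was at 22.0 and 22.7 against 59.4 and 59.7 RPKM in control and at 25.6 and 21.6 against 56.9 and 57.9 RPKM in Cd offspring. Its log2 fold change in control offspring was 1.41 ± 0.08 (SE). The gene span of Mars overlaps that of Ddit3, a stress-response factor on the same stretch of chromosome 10, and the use of strand in counting is not given in the sources used here. Ddit3 itself fell after stimulation, by 1.22 on the log2 scale in control offspring. Whether reads of Ddit3 enter the values of Mars, or the reverse, was not tested.

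Gars, the glycine enzyme, was at 37.2 and 36.5 RPKM in unstimulated against 96.3 and 91.9 RPKM in stimulated control libraries, and at 40.9 and 36.6 against 90.3 and 91.4 RPKM in Cd offspring. Eprs was at 35.0 and 37.0 against 91.9 and 88.2 RPKM in control offspring, and at 38.2 and 38.9 against 88.0 and 88.1 RPKM in Cd offspring. Both groups of libraries were well apart in either exposure, and the log2 fold changes were 1.35 and 1.32 in control offspring. The remaining genes that rose in control offspring were Aars (1.31), Rars (1.27), Vars (1.27), Lars (1.24), Nars (1.21), Tars (1.20), Cars (1.20), Farsb (1.14), Yars (1.09) and Farsa (1.01), each with its log2 fold change. Farsa stood closest to the 2-fold limit, and it was under 2-fold without unstimulated control replicate 6 (0.91) or stimulated control replicate 7 (0.99).

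The 2 cytosolic genes with the smallest change in control offspring were Sars and Qars, which charge serine and glutamine. In Cd offspring they were Dars and Sars. Sars was at 44.4 and 39.8 RPKM in unstimulated and 54.5 and 54.0 RPKM in stimulated control libraries, and at 38.9 and 38.5 against 50.9 and 54.9 RPKM in Cd offspring. Its log2 fold change was 0.37 ± 0.06 (SE) in control offspring (limma, adjusted p = 0.0016), so that the groups were apart but by less than 2-fold. Qars was at 43.8 and 44.9 RPKM before and 64.0 and 62.5 RPKM after stimulation in control offspring, and at 43.1 and 41.6 against 61.5 and 60.8 RPKM in Cd offspring, a log2 fold change of 0.51 ± 0.04 (SE) in control offspring. Dars, the aspartate enzyme, stood at 0.54 and Hars, the histidine enzyme, at 0.87 on the log2 scale in control offspring. Sars, Qars and Dars were among the 5 most abundant cytosolic genes in unstimulated cells of control offspring, as the plot of levels shows. The others of these 5, Nars (1.21) and Kars (1.50), were more abundant still and rose by more than 2-fold.

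The cytosolic genes can also be grouped by complex and by class. The 8 genes of the multisynthetase complex (Dars, Eprs, Iars, Kars, Lars, Mars, Qars and Rars) had a median log2 fold change of 1.30 in control offspring, and 6 of them rose. The 12 genes outside it had a median of 1.20, and 10 rose. Of the 9 class I genes 8 rose, with a median of 1.27, and of the 10 class II genes 7 rose, with a median of 1.17, Eprs having a domain of each class. In Cd offspring 6 of the 8 genes of the complex rose (median 1.24) and 7 of the 12 outside it (1.05), and 7 of the 9 class I (1.27) and 5 of the 10 class II genes (1.004). Over all genes tested 11.5% rose in control and 11.4% in Cd offspring, with medians of 0.07 and 0.05. Farsb (0.95), Farsa (0.91) and Yars (0.89), all outside the complex, were just under 2-fold in Cd offspring. The counts and medians were not tested against each other.

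**Figure D2:**
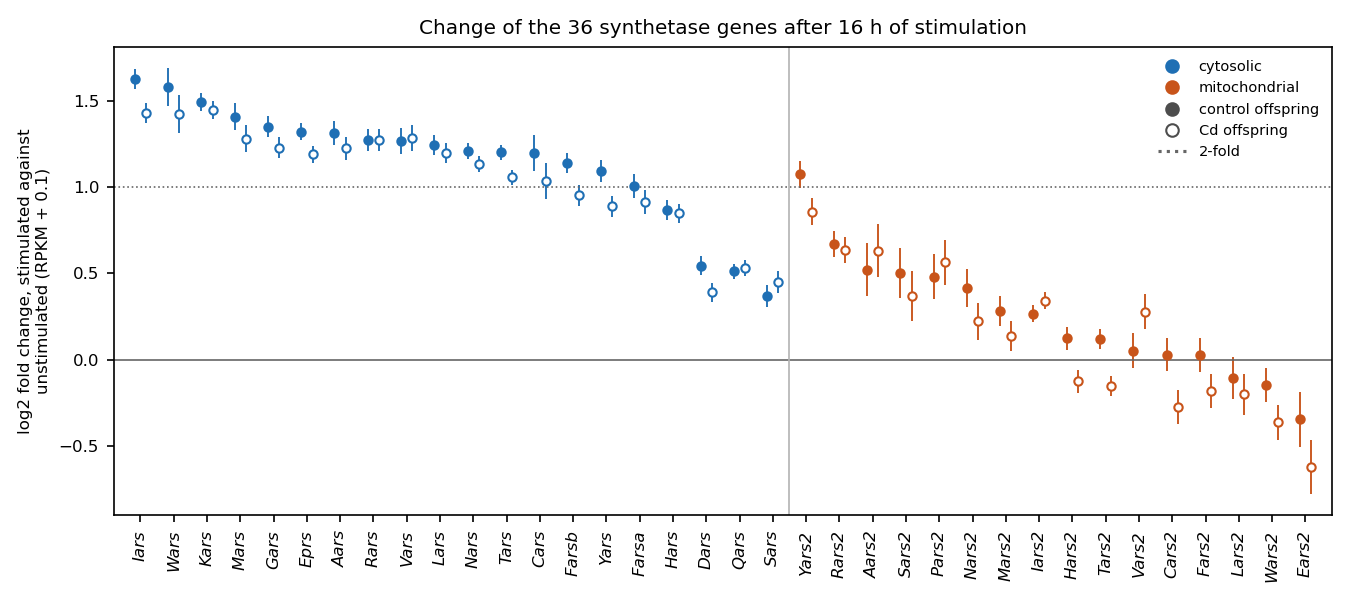
Log2 fold change of RPKM + 0.1, stimulated against unstimulated, for the 20 cytosolic and 16 mitochondrial synthetase genes, with error bars of 1 SE from the limma fit. Filled circles are control and open circles Cd offspring, and the dotted line marks 2-fold. Of the cytosolic genes 16 lie above the line in control and 13 in Cd offspring, and of the mitochondrial genes Yars2 alone does, in control offspring.

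Few genes of the mitochondrial set passed the test. Of its 16 genes 1 rose by more than 2-fold at an adjusted p under 0.01 in control offspring (Yars2), beside the same 11.5% of all genes, and none fell. Without the fold limit 3 were higher (Yars2, Rars2 and Iars2), where 29.9% of all genes were, and none lower, where 21.8% were. The libraries were higher without overlap for 10 of the 16, beside 46.0% of all genes, and lower without overlap for Wars2, where 37.2% of all genes were. The median log2 fold change was 0.19 with Lars2 and 0.27 without it, from -0.35 (Ears2) to 1.07 (Yars2).

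Yars2, the mitochondrial tyrosine enzyme (chr16:16302965-16309640), was at 7.36 and 8.27 RPKM in unstimulated and 16.9 and 16.2 RPKM in stimulated control libraries, and at 9.64 and 9.20 against 16.6 and 17.8 RPKM in Cd offspring. The groups did not overlap in either exposure. The log2 fold change was 1.07 ± 0.08 (SE) in control offspring (limma, Benjamini-Hochberg adjusted p = 1.64e-05), close to the 2-fold limit, and it fell under that limit without unstimulated control replicate 6 (0.99). Rars2, the arginine enzyme, was at 13.8 and 12.7 RPKM before and 22.1 and 20.2 RPKM after stimulation in control offspring, and at 13.7 and 12.7 against 21.1 and 20.1 RPKM in Cd offspring. Its groups did not overlap, with a log2 fold change of 0.67 ± 0.08 (SE) in control offspring (limma, adjusted p = 1.58e-04). The span of Rars2 overlaps that of Orc3. Other members also overlap neighbours, among them Wars with Wdr25, Aars with Ddx19b, Farsb with Sgpp2 and Iars2 with Rab3gap2. Whether reads of these neighbours enter the values of the members was not tested.

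The next genes did not pass the test in control offspring although their libraries were apart. Aars2, for alanine, was at 4.71 and 5.24 against 6.92 and 7.45 RPKM in control and at 5.44 and 3.92 against 6.95 and 7.50 RPKM in Cd offspring. Sars2, for serine, was at 5.62 and 6.91 against 8.42 and 9.34 RPKM in control and at 7.39 and 5.74 against 8.55 and 8.34 RPKM in Cd offspring. Their log2 fold changes in control offspring were 0.52 ± 0.15 and 0.50 ± 0.14 (SE; limma, adjusted p = 0.0181 and 0.0168). Pars2 was at 3.16 and 3.45 against 4.56 and 4.75 RPKM in control and at 3.60 and 2.82 against 4.73 and 4.78 RPKM in Cd offspring. Nars2, for asparagine, was at 4.69 and 5.41 against 7.11 and 6.41 RPKM in control and at 5.13 and 5.76 against 6.43 and 6.28 RPKM in Cd offspring. The log2 fold changes of Pars2 and Nars2 in control offspring were 0.48 and 0.41 (limma, adjusted p = 0.0136 and 0.0113).

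The mitochondrial genes nearest to no change in control offspring were Fars2, for phenylalanine, and Cars2, for cysteine. Fars2 was at 6.01 and 5.77 RPKM in unstimulated and 5.72 and 6.31 RPKM in stimulated control libraries, and at 6.15 and 6.85 against 5.43 and 5.98 RPKM in Cd offspring. Cars2 was at 12.8 and 13.2 against 12.9 and 13.7 RPKM in control and at 16.1 and 13.4 against 12.7 and 11.6 RPKM in Cd offspring. Both had a log2 fold change of 0.03 in control offspring, with 95% intervals of -0.21 to 0.26 for Fars2 and -0.20 to 0.26 for Cars2, and their control libraries overlapped. In Cd offspring both were lower without overlap, at -0.18 for Fars2 and -0.27 for Cars2, and neither passed the test. The others lay between these extremes: Mars2 0.28, Iars2 0.27, Hars2 0.12, Tars2 0.12, Vars2 0.05, Lars2 -0.11 and Wars2 -0.15 on the log2 scale in control offspring.

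In Cd offspring the same question was asked of a separate set of libraries, but within the same fit. The spread behind its p values is therefore shared with the control libraries. Of the cytosolic genes 13 rose by more than 2-fold at an adjusted p under 0.01 (limma, Benjamini-Hochberg), where 11.4% of all genes rose. Farsb (0.95), Farsa (0.91) and Yars (0.89) were under 2-fold here with Hars (0.85), Qars (0.53), Sars (0.45) and Dars (0.39), and all 20 met the criterion at any fold, against 30.2% of all genes. Cars (1.04) stood closest above the limit in Cd offspring and was under it without unstimulated Cd replicate 7 (0.89) or stimulated Cd replicate 7 (0.99). The median log2 fold change was 1.16, with Kars (1.45), Iars (1.43) and Wars (1.42) at the top, beside 0.05 over all genes. No mitochondrial gene passed the 2-fold limit in either direction. At any fold 5 of the 16 were higher, close to the share of 30.2% over all genes. These were Yars2 (0.86), Rars2 (0.63), Aars2 (0.63), Pars2 (0.56) and Iars2 (0.34). Ears2 was lower (-0.62), where 22.3% of all genes were. The mitochondrial median was 0.18, and every mitochondrial gene had libraries without overlap: 9 were higher after stimulation, beside 44.7% of all genes, and 7 lower (Cars2, Ears2, Fars2, Hars2, Lars2, Tars2 and Wars2), beside 38.4%.

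The ratio of a cytosolic to a mitochondrial synthetase for the same amino acid was then formed within each library, which sets aside the scaling between libraries. The 13 pairs were compared between the 4 stimulated and the 4 unstimulated libraries of both exposures with a two-sided exact permutation test, whose smallest possible p is 0.0286. In 11 pairs the ratio rose, each at this smallest p (exact permutation test, Benjamini-Hochberg adjusted p = 0.0338 over the 13 pairs), with no overlap between the libraries. The test took the 8 libraries as independent, with both exposures pooled and libraries of the same number unpaired. Its p values rest on this, and the sources used here do not state whether libraries of the same number share an animal. The ratios are formed from the values behind the calls above and are no separate support for them. The median change over the 13 pairs was 1.11 on the log2 scale (2.16-fold).

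The largest change was that of Wars over Wars2, the tryptophan enzymes. The ratio was 4.27 and 4.10 in unstimulated control, 3.93 and 4.32 in unstimulated Cd, 13.3 and 14.5 in stimulated control and 12.6 and 16.2 in stimulated Cd libraries. All stimulated libraries were above all unstimulated ones, by 1.76 on the log2 scale. For Lars over Lars2, the leucine enzymes, the ratio was 0.0219 and 0.0174 in unstimulated control, 0.0186 and 0.0149 in unstimulated Cd, 0.0534 and 0.0462 in stimulated control and 0.0450 and 0.0427 in stimulated Cd libraries. This pair alone had a ratio far below 1 in every library, given the level of Lars2, and its change was 1.37 on the log2 scale. The source of the Lars2 reads was not tested, so this ratio may not compare synthetase mRNAs. The log2 changes of the other pairs whose ratio rose were 1.24 (Cars/Cars2), 1.23 (Iars/Iars2), 1.15 (Tars/Tars2), 1.14 (Mars/Mars2), 1.11 (Vars/Vars2), 0.86 (Hars/Hars2), 0.85 (Nars/Nars2), 0.69 (Aars/Aars2) and 0.62 (Rars/Rars2). Hars and Hars2 lie head to head on chromosome 18 and their annotated spans touch.

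The tyrosine and serine pairs kept overlapping ratios. Yars over Yars2 stood at 2.10 and 1.82 in unstimulated control, 1.83 and 1.75 in unstimulated Cd, 1.94 and 2.02 in stimulated control and 1.84 and 1.81 in stimulated Cd libraries. The difference was 0.02 on the log2 scale (exact permutation p = 0.714). Here both members were higher after stimulation. Sars over Sars2 stood at 7.78 and 5.70 in unstimulated control, 5.20 and 6.62 in unstimulated Cd, 6.40 and 5.73 in stimulated control and 5.90 and 6.52 in stimulated Cd libraries, a difference of -0.03 (exact permutation p = 0.857). In control offspring Sars had the smallest log2 fold change of the cytosolic set, while that of Sars2 (0.50) was among the larger ones of the mitochondrial set. Summed over each set, without Lars2, the cytosolic RPKM was 3.88 to 4.23 times the mitochondrial RPKM in unstimulated and 7.24 to 7.60 times in stimulated libraries.

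**Figure D3:**
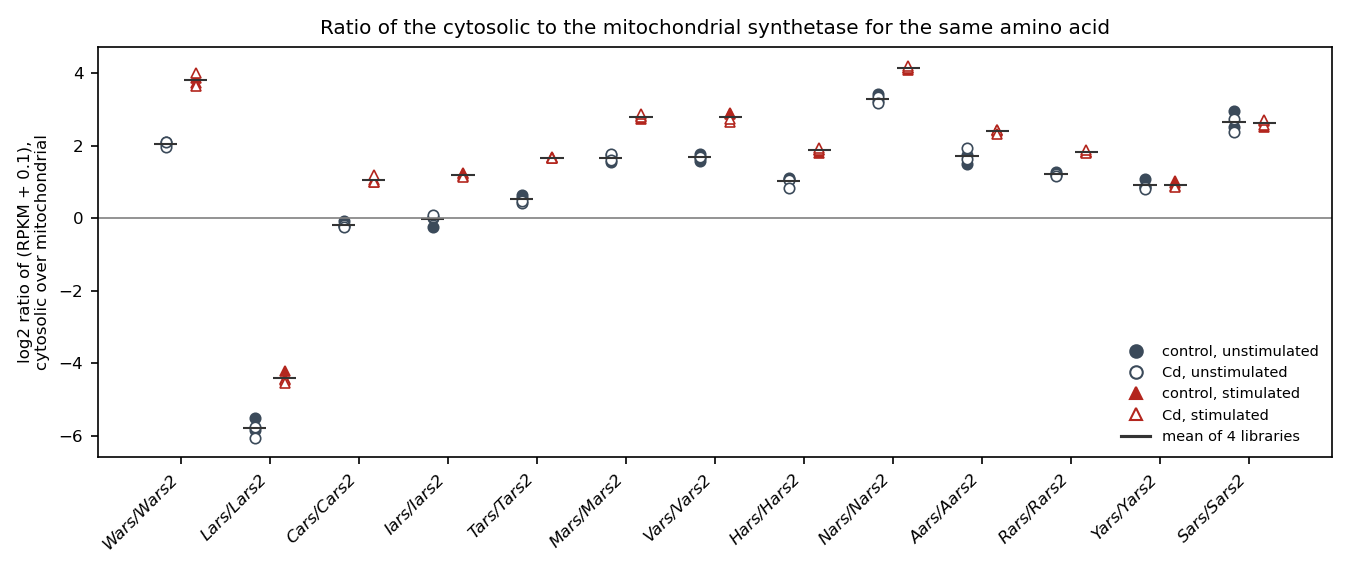
Log2 ratio of RPKM + 0.1 of the cytosolic over the mitochondrial synthetase for 13 amino acids in each of the 8 libraries, with bars at the mean of 4 libraries. Circles are unstimulated and triangles stimulated libraries, filled for control and open for Cd offspring. In 11 pairs all triangles lie above all circles, in Yars/Yars2 and Sars/Sars2 they overlap, and Lars/Lars2 lies near -6 to -4 in all libraries.

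Prenatal Cd changed no synthetase by the test in unstimulated cells. None of the 36 was called higher or lower at an adjusted p under 0.05 (limma, Benjamini-Hochberg), where 0.135% of all genes were higher and 0.762% lower in Cd offspring. At an unadjusted p under 0.05 stood 4 of the 36 members (Tars, Tars2, Yars2 and Ears2), beside 13.9% of all genes, and limma voom on recovered reads also called 0 members, with 4 at an unadjusted p under 0.05. The libraries of Cd offspring were higher without overlap for 8 of 20 cytosolic and 6 of 16 mitochondrial genes, beside 22.3% of all genes, and lower without overlap for 3 cytosolic genes (Qars, Sars and Wars), beside 20.0%. The log2 difference was above 0 for 13 of the 20 and 10 of the 16, beside 51.6% of all genes. It was below 0 for the other 7 and 6, numbers that became 11 and 8 without unstimulated Cd replicate 6 and 4 and 1 without unstimulated Cd replicate 7. The median log2 difference, Cd against control, was 0.07 over the cytosolic and 0.08 over the mitochondrial set, beside 0.01 over all genes, and without unstimulated Cd replicate 6 these medians were -0.01 and 0.02.

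The lowest p was that of Tars2, the mitochondrial threonine enzyme. It was at 16.7 and 17.7 RPKM in unstimulated control and 21.0 and 19.9 RPKM in unstimulated Cd libraries, and at 18.8 and 18.5 against 18.2 and 18.6 RPKM in the stimulated ones. The Cd libraries were higher without overlap in unstimulated cells (log2 difference 0.25 ± 0.06 SE, limma, Benjamini-Hochberg adjusted p = 0.137), which did not pass. For Yars2, whose values stand above, the log2 difference in unstimulated cells was 0.27 (95% interval 0.08 to 0.45, adjusted p = 0.22 by limma). Ears2, the mitochondrial glutamate enzyme, was at 7.05 and 8.97 RPKM in unstimulated control and 11.2 and 10.00 RPKM in unstimulated Cd libraries. In stimulated cells it was at 5.47 and 7.10 against 6.48 and 7.21 RPKM. Its log2 difference of 0.41 in unstimulated cells, or 0.23 without unstimulated control replicate 6, had a wide 95% interval, 0.04 to 0.78 (limma, adjusted p = 0.327), and the gap between its control libraries was wider than that between the nearest control and Cd libraries.

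In stimulated cells no member, and none of all genes (0.0%), was called at an adjusted p under 0.05. At an unadjusted p under 0.05 stood 1 member (Wars2) by limma and 2 by limma voom, and 3.28% of all genes by limma. The log2 difference was below 0, lower in Cd offspring, for 19 of the 20 cytosolic genes, all but Farsa, beside 54.1% of all genes, and 12 of them were lower without overlap between the libraries, beside 20.6% of all genes. None was higher without overlap, where 16.0% of all genes were. These differences were small: the median was -0.05 (0.966-fold), or -0.03 without stimulated Cd replicate 6, and that of all genes was -0.01. The 95% intervals of the 20 cytosolic genes ran from -0.46 (Wars) at the lowest to 0.18 (Cars) at the highest, and all 20 held 0. The number below 0 was 17 to 20 when each library was left out in turn. Genes of 1 library share its composition and scaling, so these counts are a description. Of the mitochondrial genes 9 of 16 were below 0 (8 to 10 when each library was left out), with a median of -0.03, or -0.0005 without stimulated control replicate 7.

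Wars2, the mitochondrial tryptophan enzyme, had the lowest p in stimulated cells. It was at 4.05 and 4.21 RPKM in stimulated control and 3.49 and 3.42 RPKM in stimulated Cd libraries, and at 4.59 and 4.57 against 4.75 and 4.23 RPKM in unstimulated cells. The log2 difference in stimulated cells was -0.25 with a 95% interval of -0.48 to -0.02. Wars followed, with -0.21 (-0.46 to 0.05), its stimulated libraries overlapping between exposures, and its value was -0.37 without stimulated Cd replicate 7 and -0.04 without stimulated Cd replicate 6. Hars2, the mitochondrial histidine enzyme, was at 15.3 and 14.7 RPKM in stimulated control and 14.2 and 13.6 RPKM in stimulated Cd libraries, and at 13.5 and 14.0 against 14.6 and 15.9 RPKM in unstimulated cells. Its log2 difference in stimulated cells was -0.10 (-0.26 to 0.05).

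**Figure D4:**
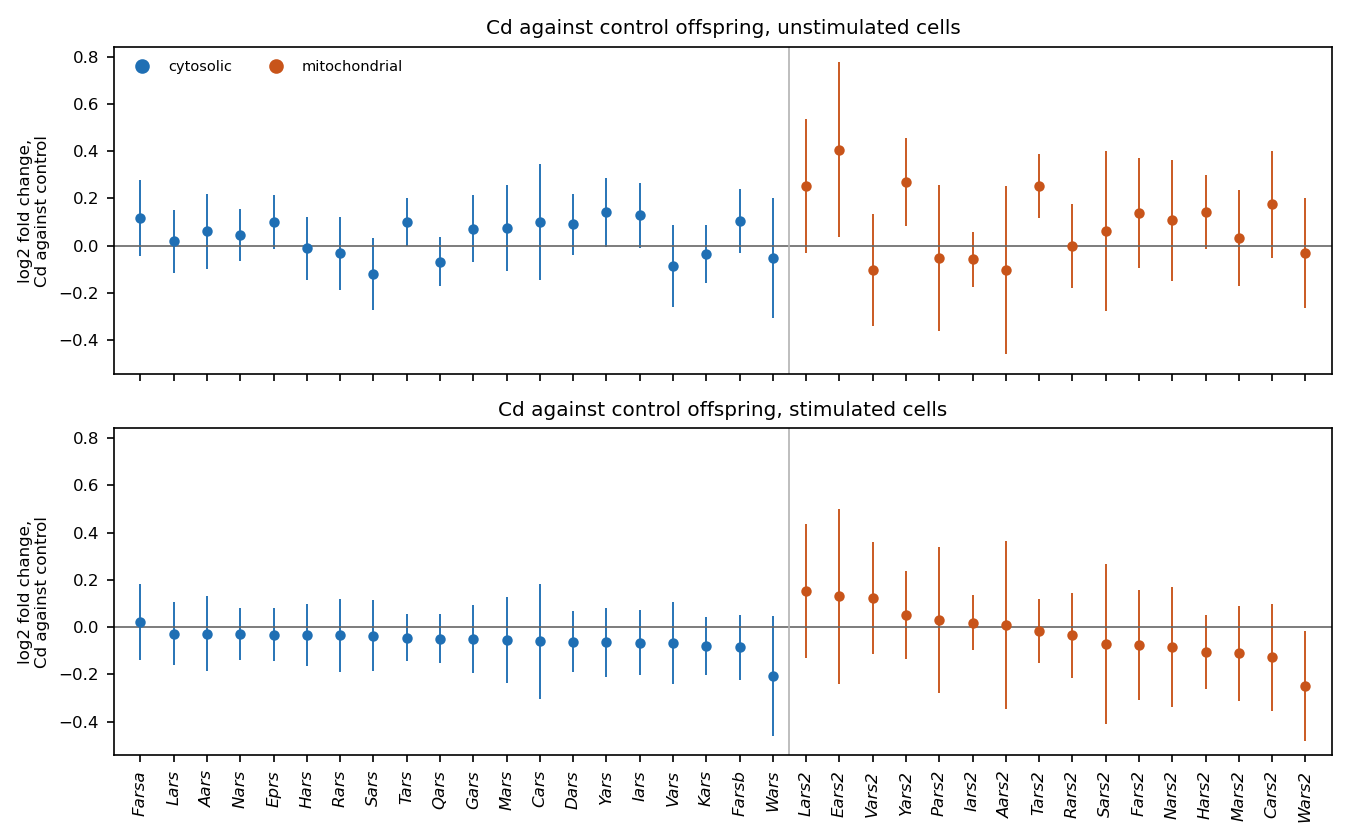
Log2 difference of RPKM + 0.1, Cd against control offspring, for the 36 synthetase genes in unstimulated (top) and stimulated cells (bottom), with 95% intervals from the limma fit. Genes are ordered within each compartment by the difference in stimulated cells. In stimulated cells 19 of the 20 cytosolic points lie below 0 and all 20 of their intervals hold 0.

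The response to stimulation was compared between exposures with the interaction contrast, stimulation in Cd minus stimulation in control offspring. No member was called at an adjusted p under 0.05 (limma, Benjamini-Hochberg), beside 0.301% of all genes with a larger and 0.0555% with a smaller value in Cd offspring. At an unadjusted p under 0.05 stood 3 of the 36 members (Tars2, Hars2 and Tars), beside 10.6% of all genes, and 4 by limma voom. The difference was below 0 for 17 of 20 cytosolic genes, or 14 to 19 when each library was left out, beside 52.9% of all genes. Its median was -0.11, and -0.06 without unstimulated Cd replicate 6. Over the mitochondrial set it was below 0 for 12 of 16 genes, or 10 to 13 when each library was left out. The median there was -0.17, and -0.10 without stimulated control replicate 7. The values were -0.27 ± 0.08 (SE) for Tars2, -0.25 ± 0.09 for Hars2 and -0.15 ± 0.06 for Tars (limma, adjusted p = 0.325, 0.428 and 0.461).

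For Tars, the cytosolic threonine enzyme, the difference between exposures was small beside the response. It was at 26.2 and 25.9 RPKM in unstimulated control, 28.0 and 27.8 in unstimulated Cd, 60.0 and 59.9 in stimulated control and 57.7 and 58.6 RPKM in stimulated Cd libraries. The libraries of each exposure were apart in both states, higher in Cd before and lower in Cd after stimulation, and stimulation raised Tars by 1.20 in control and 1.06 in Cd offspring on the log2 scale.

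The promoters of the members were read for a pair of short motifs, since stimulation moved most of the cytosolic set together. TGATGNAA is the core of the amino acid response element that ATF4 and its partners bind, and CACGTG is the E-box bound by MYC with MAX. RefSeq windows of 300 bases (GRCm38.p6, 250 before to 50 after the start site) were found for 27 of the 36 members, 13 cytosolic and 14 mitochondrial. TGATGNAA, on either strand, was in the windows of 5 of the 13 cytosolic genes (Aars, Gars, Iars, Tars and Yars) and of 0 of the 14 mitochondrial ones, and in 3.97% of all 32851 windows. CACGTG, which reads the same on both strands and did not overlap the other motif in these windows, was in 4 of the 13 (Aars, Farsb, Iars and Tars), in Ears2 alone of the 14, and in 7.15% of all windows. A member was counted if any window of its gene held the motif, whereas the percentages are of single windows. The stretches that hold TGATGNAA are shown 5′ to 3′ on the strand of the gene, from 150 bases (50 for Gars and Yars) before to 30 bases after the start site, with both motifs in capitals. They are shown because they hold the motif that was seen in the cytosolic set and in no mitochondrial window.
Iars (chr13:49681980-49682159, plus strand): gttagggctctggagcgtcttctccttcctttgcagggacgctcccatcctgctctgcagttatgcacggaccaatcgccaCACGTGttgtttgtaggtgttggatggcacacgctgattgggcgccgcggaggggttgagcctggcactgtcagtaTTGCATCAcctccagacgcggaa
Tars (chr15:11399629-11399808, minus strand): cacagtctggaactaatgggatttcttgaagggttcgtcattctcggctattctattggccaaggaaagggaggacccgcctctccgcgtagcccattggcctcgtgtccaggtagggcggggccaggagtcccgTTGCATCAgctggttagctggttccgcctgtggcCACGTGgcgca
Aars (chr8:111033692-111033871, plus strand): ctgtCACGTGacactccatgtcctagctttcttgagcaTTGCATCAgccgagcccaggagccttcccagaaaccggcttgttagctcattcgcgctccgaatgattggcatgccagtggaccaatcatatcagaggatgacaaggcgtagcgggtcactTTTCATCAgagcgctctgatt
Gars (chr6:55037951-55038030, plus strand): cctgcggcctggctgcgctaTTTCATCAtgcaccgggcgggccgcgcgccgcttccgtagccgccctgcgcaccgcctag
Yars (chr4:129189853-129189932, plus strand): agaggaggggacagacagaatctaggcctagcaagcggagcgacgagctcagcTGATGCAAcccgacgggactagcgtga

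Counted from 1 at the start site, with bases before it negative, the first base of TGATGNAA is at 8 in Iars, -15 in Tars, -112 and 10 in Aars, -30 in Gars and 4 in Yars. In Yars the motif is on the strand of the gene and in the other genes on the opposite strand. The 5 genes with TGATGNAA had log2 fold changes of 1.09 (Yars) to 1.63 (Iars) in control offspring, and the 15 other cytosolic genes, without it or without a window, had 0.37 (Sars) to 1.58 (Wars). These ranges overlap, genes without a window could not be placed, and whether the motif bears on the response was not tested. A match is a description of these letters and not a bound site. The transcripts of the factors themselves went in opposite directions: Myc rose from 34.1 ± 2.50 to 192.2 ± 7.97 RPKM (mean ± SD, n = 2) in control offspring, a log2 fold change of 2.49, while Atf4 stood at 105 before and 68.0 RPKM after stimulation, a log2 fold change of -0.63. These transcripts were chosen after their values were seen, and the activity of either factor was not tested.

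Genes that work beside the synthetases were taken from fixed lists. Of the 3 scaffold genes of the multisynthetase complex 2 rose in control offspring, where 11.5% of all genes did. Eef1e1 rose by 1.84 and Aimp2 by 1.10 on the log2 scale in control offspring, and Aimp1 stood at 0.67, under 2-fold. Their sum was 57.3 to 65.8 RPKM in unstimulated and 141 to 155 RPKM in stimulated control libraries. None of the 4 mitochondrial charging partners reported here passed the 2-fold test in either exposure. In control offspring Gatc, Gatb and Qrsl1, the subunits that make glutamine on mitochondrial tRNA in place of a glutamine enzyme, stood at 0.80, 0.31 and 0.13. Mtfmt, which formylates the initiator, stood at 0.34. In Cd offspring the median of these 4 was 0.42, against 0.33 in control offspring.

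These counts stand beside shares over all genes of 11.5% higher and 7.17% lower in control and 11.4% and 7.24% in Cd offspring. Of 16 genes for tRNA maturation and export, 5 rose in control and 4 in Cd offspring and none fell. Mettl1, which methylates guanosine in tRNA, rose by 2.13, Xpot, the tRNA exporter, by 1.79 and Nsun2, a tRNA cytosine methylase, by 1.55 in control offspring. Of 14 genes of RNA polymerase III, which transcribes tRNA genes, Polr3d (1.21) and Polr3g (1.06) rose in control offspring, and Polr3gl, the paralog of Polr3g, fell (-1.07), numbers close to what these shares give for a list of this size. Of 9 genes for editing and selenocysteine none passed the 2-fold test, with Aarsd1 (0.77), Sephs1 (0.60) and Dtd1 (0.57) highest in control and Dtd1 (0.90), Aarsd1 (0.90) and Sephs1 (0.51) in Cd offspring. Of the 10 tested genes of the amino acid response, Asns (3.39), Psat1 (2.45) and Phgdh (1.93) rose and Ddit4 (-1.57) and Ddit3 (-1.22) fell in control offspring. Asns was barely detected before stimulation, with a mean of 0.1055 RPKM in unstimulated and 2.052 RPKM in stimulated control libraries. Its unstimulated level is close to the pseudocount of 0.1 RPKM, so the size of its log2 fold change depends on that pseudocount. In Cd against control offspring these lists held 2 calls, both in unstimulated cells: Ddit4 (-1.05, limma, Benjamini-Hochberg adjusted p = 0.0187) and Dtd1 (-0.38, adjusted p = 0.0383) were lower in Cd offspring.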

How the data were processed

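RNA was sequenced from 8 libraries of splenic CD4+ T cells, 2 in each of 4 groups taken from the sample labels. Per the labels and the methods of the study, the authors aligned reads with subread to mm10 and counted them with featureCounts on RefSeq transcripts (versions, strand setting and treatment of multiply aligned reads are not given in the sources used here). The authors deposited a log2 table of 27179 genes, log2(RPKM + 1) + 0.0001 as read from its values. It was turned back to RPKM, for which the test had been planned. The spacing of low values gave back whole reads for 17793 of the 17794 genes detected in 2 or more libraries, with a transcript length whole within 0.05 for 99.7% of them, and so the totals, 15542732 to 25486791 reads.

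The 12605 genes whose RPKM averaged 0.5 or more entered 1 limma fit (limma 3.58.1 in R 4.3.3) of log2(RPKM + 0.1) on the 4 groups, with trended empirical Bayes moderation, contrasts between groups and Benjamini-Hochberg adjustment over these genes. Stimulation calls needed an adjusted p below 0.01 together with a change beyond 2-fold. Cd comparisons and the interaction used 0.05 alone. The pipeline was tested on simulated data. All 36 members are named. Values in every library are given for those with the largest and smallest stimulation response in control offspring (6 and 2 per compartment), the lowest p in each Cd comparison (3) and the extreme pairs (2 and 2). Of other lists, the scaffold genes, charging partners and up to 3 genes with the largest change are named, and, chosen after their values were seen, Atf4, Myc, Ddit3 and genes called for Cd. The members and lists were chosen with earlier results of these data known, and 2 list genes are not reported here. Alternatives were pseudocounts of 0.5 and 1, other filters, scalings and libraries, no trend, limma voom on the recovered reads, a replicate block and each library left out. Promoter windows are those of RefSeq, and the start of 20 of the 27 members' windows stood in a GENCODE transcript of the same gene name. Tables and plots were made with Python 3.11.15, numpy 2.4.6, pandas 2.3.3, scipy 1.17.1 and matplotlib 3.10.9.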

Additional observations from a re-analysis of the deposited data

How the results depend on the processing

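The counts of members called kept within 1.5 times their value under every alternative run, with 1 exception. For stimulation in control offspring, the mitochondrial count of 1 (Yars2) became 0 with a pseudocount of 1, with median-of-ratios scaling and with quantile normalization, and was 0 to 1 with each library left out (0 without unstimulated control replicate 6), since Yars2 then changed by less than 2-fold. The cytosolic count was 13 (quantile normalization) to 16 in control and 11 (quantile normalization) to 13 in Cd offspring. Quantile normalization moved the median of all genes from 0.07 to -0.03 in control and from 0.05 to -0.04 in Cd offspring. The cytosolic genes that lost a call were Farsa, Farsb and Yars in control and Cars and Tars in Cd offspring, all by falling under 2-fold. Values near 0 that no setting called changed sign for stimulation in control offspring. With median-of-ratios scaling these were Cars2 (-0.0465), Fars2 (-0.0471) and Vars2 (-0.0239). With quantile normalization they were Cars2 (-0.0924), Fars2 (-0.0554), Vars2 (-0.0621), Hars2 (-0.0028), Tars2 (-0.0115) and Lars2 (0.0055). With each library left out, Cars2 ranged from -0.0125 to 0.0706, Fars2 from -0.0421 to 0.0977, Vars2 from -0.0441 to 0.147 and Lars2 from -0.2504 to 0.0398. The change of the Sars/Sars2 ratio was 0.0120 with a pseudocount of 1 and -0.1161 to 0.0774 with a library left out, and that of Yars/Yars2 was -0.0080 to 0.0800 with a library left out. With a library left out the pairs cannot reach an adjusted p under 0.05, so only values were computed, and no filter removed a pair. Libraries with the same number did not deviate together (correlations of -0.112 to 0.064), and the main fit used no pairing. Such correlations cannot settle whether libraries of the same number share an animal, which the sources used here do not state. With the replicate block the member counts were 16 and 13 cytosolic and 1 and 0 mitochondrial, as without it, and no Cd call was made among members. Depth limits the lowest members, with 157 reads for Ears2 in 1 library, and 2 libraries a group limit all Cd comparisons.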
